A study of Mus musculus with 95 samples.

Results

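HPC-1 and HPC-2 are 2 populations of blood progenitors from mouse bone marrow, and they were compared here in the 18 libraries made 3, 4 and 5 weeks after a transplant. The members were chosen by library title: 9 HPC-1 and 9 HPC-2 libraries, 3 per population and week, of 95 libraries in the series. All 18 came from B6.SJL mice, given in the labels as 8 to 12 weeks old, in a series where hosts irradiated with 900 cGy received 8000 lineage-negative, Sca-1+ cKit+ (LSK) cells. The labels name no other genotype or agent for either group. The marrow of the spine, femurs, tibia and iliac bones was enriched for cKit and sorted, and RNA was copied by SMART-Seq v4, a method for few cells. The labels give 1 sort gate for all populations, LSK CD48- CD150+, which is that of stem cells, and 1 HPC-2 library (3 weeks, replicate 1) has a treatment label that reads untreated; titles were followed throughout. No gate between donor and host cells is given, so cells that the host kept may be included. Whether replicates are different animals is not in the labels, so the p-values measure only the spread between these samples, which may be technical.

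In the marrow, LSK cells are divided by the SLAM receptors CD150 (Slamf1) and CD48. In the usual scheme HPC-1 are LSK CD150- CD48+ cells, which lean towards lymphoid and granulocyte-monocyte fates, and HPC-2 are LSK CD150+ CD48+ cells, which lean towards megakaryocytes, the source of platelets, and red cells. Such leaning, or priming, is read from low levels of the genes that the mature cells use. In bulk samples fewer cells of a type and less RNA per cell cannot be told apart.

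The promoters of 5 genes that differ between the populations are shown first, since these genes carry the contrast: Pf4 and Gp9 of platelets, Klf1 of red cells, and Dntt and Flt3 of lymphoid progenitors. They run from 250 bases before to 50 bases after the start of the gene, in RefSeq on GRCm38.p6. Capitals mark AGATAA or TGATAA on either strand, letters that GATA factors can bind.
Pf4 promoter: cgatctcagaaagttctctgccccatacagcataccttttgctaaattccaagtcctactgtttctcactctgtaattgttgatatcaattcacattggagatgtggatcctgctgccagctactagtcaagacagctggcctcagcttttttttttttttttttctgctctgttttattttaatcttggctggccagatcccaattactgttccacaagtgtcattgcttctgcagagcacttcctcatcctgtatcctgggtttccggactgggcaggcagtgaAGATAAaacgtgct
Gp9 promoter: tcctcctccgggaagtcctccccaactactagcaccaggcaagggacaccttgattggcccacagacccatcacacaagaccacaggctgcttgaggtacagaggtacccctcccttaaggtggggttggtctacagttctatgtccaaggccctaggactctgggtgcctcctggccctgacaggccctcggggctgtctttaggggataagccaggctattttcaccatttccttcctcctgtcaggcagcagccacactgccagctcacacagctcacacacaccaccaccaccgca
Klf1 promoter: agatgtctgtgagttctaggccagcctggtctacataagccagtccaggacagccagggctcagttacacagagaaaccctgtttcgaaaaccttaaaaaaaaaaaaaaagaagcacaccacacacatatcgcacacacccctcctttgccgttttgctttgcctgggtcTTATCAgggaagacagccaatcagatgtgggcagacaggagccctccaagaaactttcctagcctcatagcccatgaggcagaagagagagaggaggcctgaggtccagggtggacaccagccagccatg
Dntt promoter: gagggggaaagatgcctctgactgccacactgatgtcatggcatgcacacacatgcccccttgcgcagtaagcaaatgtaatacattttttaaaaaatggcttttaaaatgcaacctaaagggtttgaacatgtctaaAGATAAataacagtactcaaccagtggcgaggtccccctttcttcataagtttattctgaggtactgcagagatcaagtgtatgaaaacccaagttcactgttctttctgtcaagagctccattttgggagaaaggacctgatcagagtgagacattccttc
Flt3 promoter: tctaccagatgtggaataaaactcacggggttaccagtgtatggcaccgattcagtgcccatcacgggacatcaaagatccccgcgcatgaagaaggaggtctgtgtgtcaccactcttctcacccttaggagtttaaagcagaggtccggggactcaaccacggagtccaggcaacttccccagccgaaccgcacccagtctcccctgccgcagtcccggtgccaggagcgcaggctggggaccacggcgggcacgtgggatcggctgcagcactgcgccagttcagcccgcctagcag
These are chr5:90772185-90772484, plus strand, for Pf4, chr6:87777820-87778119, plus strand, for Gp9, chr8:84901732-84902031, plus strand, for Klf1, chr19:41029025-41029324, plus strand, for Dntt, and chr5:147400440-147400739, minus strand, for Flt3. The letters were present once each in the Pf4, Klf1 and Dntt windows and not in those of Gp9 and Flt3. Over all 32851 promoters of this length, 18.6% held them, against 20 of 110 matched promoters (18.2%) of the genes called higher in HPC-2 and 23 of 194 (11.9%) of those called higher in HPC-1. Among called megakaryocyte and erythroid genes, 5 of 16 promoters (31.2%) held them, and among called lymphoid genes 1 of 6 (16.7%). A second motif, CAGGAAG on either strand, which ETS factors can bind, was in 13.3% of all promoters, 18.6% of those higher in HPC-1 and 12.7% of those higher in HPC-2. It was in 2 of 16 called megakaryocyte and erythroid genes (12.5%) and 3 of 6 called lymphoid genes (50.0%). The 32851 hold every promoter entry, of genes tested here or not, and the called sets hold 1 promoter per gene. The shares are thus of unlike sets. A promoter was found for 194 of the 252 genes called higher in HPC-1 and 110 of the 142 higher in HPC-2. A motif match is only a description of the letters.

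Total counts ran from 4179040 to 5929923 in HPC-1 (median 4690472) and from 4766628 to 7388480 in HPC-2 (median 5661615), with 10683 to 15697 and 11949 to 14985 genes detected. On the principal components of log2 levels, the second (15.9% of the variance) placed all 9 HPC-1 libraries on one side of 0 and all 9 HPC-2 libraries on the other. The first (32.7%) set HPC-1 5 weeks replicates 1 and 2 apart from the rest, and also spread the HPC-2 libraries. These ran from -108.86 (3 weeks replicate 3) to 73.36 (4 weeks replicate 2), which had the lowest and highest HPC-2 share of mitochondrial counts (0.3225 and 2.183%). In HPC-1 this share ran from 0.6318 to 2.85%, with 1.325 and 2.85% in 5 weeks replicates 1 and 2. Its part in the first component was not tested. The counts of HPC-2 4 weeks replicate 1 and 5 weeks replicate 2 were almost alike. A chi-square test of this pair gave 1.245 for each degree of freedom over 10773 genes, slightly above sampling noise, and the next smallest of 153 pairs gave 23.81. Results were therefore also computed without either and without both. HPC-1 5 weeks replicate 1 was likewise close (3.817) to an HPC-2 library of 8 weeks, which is in none of the comparisons of weeks 3 to 5. Neutrophil genes summed to 7060 CPM, a gene's counts per 1000000 counts of the library and the level used throughout, in HPC-2 3 weeks replicate 1, against at most 412 in the other HPC-2 libraries and 1240 in HPC-1, and macrophage genes to 556 in that library, against at most 81.3 and 111.

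**Figure D1:**
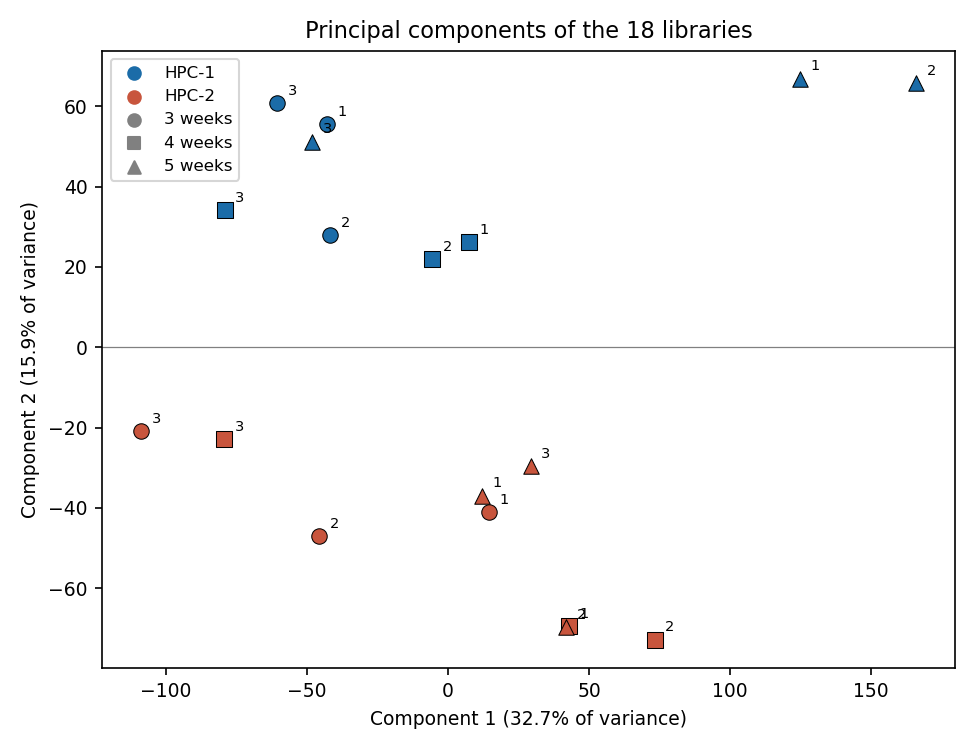
Principal components 1 and 2 of the 18 libraries; color gives the population, shape the week, and the small number the replicate. HPC-1 libraries all lie above 0 and HPC-2 libraries all below 0 on component 2, and HPC-1 5 weeks replicates 1 and 2 stand at the right on component 1.

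Over weeks 3 to 5, HPC-1 had more RNA of lymphoid genes such as Dntt, Flt3 and Satb1 and of granulocyte genes such as Mpo and Ctsg, and HPC-2 had more of platelet genes such as Pf4 and Gp1bb and of red cell genes such as Klf1 and Gata1. Of 10522 genes tested, 394 (3.74%) were called at an adjusted p under 0.05 (edgeR quasi-likelihood test with week as a block, Benjamini-Hochberg). Of these, 252 (2.39%) were higher in HPC-1 and 142 (1.35%) in HPC-2. All 394 had the same direction at each of the 3 weeks. They were called from the same libraries pooled over the weeks, which favors this, so it is no separate support. The levels of the populations did not overlap in any library for 169 of the tested genes (1.61%), 106 higher in HPC-1 (1.01%) and 63 in HPC-2 (0.599%). A gene below the filter on low counts throughout 1 population was tested only if all 9 libraries of the other passed it. For such genes the lack of overlap follows from the filter. How many of the 169 they are was not counted, so the 169 is by itself no measure of separation. Of the called genes, 5 had 0 counts in all HPC-2 libraries and 0 genes had 0 counts in all HPC-1 libraries. Among the 8188 genes with a mean level of at least 10 CPM, 356 were called (4.35%). Differences are given as log2 of HPC-1 over HPC-2 with the standard error (SE), so positive values are higher in HPC-1; the median over all tested genes was -0.06. Leaving out both near-identical libraries gave 312 calls and kept 260 of the 394.

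The sort markers were examined first, with Dntt, Flt3 and Pf4. Slamf1, which encodes CD150, ran from 0 to 143 CPM in HPC-2 (median 79.9) and from 0 to 15.6 in HPC-1 (median 0). The groups overlapped only through HPC-2 4 weeks replicate 2, which had no Slamf1 count; the next lowest HPC-2 library was at 53.9 CPM. Slamf1 was higher in HPC-2 (log2 -4.66, SE 1.15, edgeR adjusted p = 0.0252), but not without both near-identical libraries (adjusted p = 0.0704) or with no filter on low counts (0.0825). Cd48, the marker that both populations carry, was present in every library, at 499 to 1630 CPM in HPC-1 (median 959) and 258 to 966 in HPC-2 (median 614), and was not called (log2 0.73, SE 0.33, edgeR adjusted p = 0.324). Kit, the receptor of stem cell factor, and Ly6a, which encodes Sca-1, were also present in all 18 libraries and not called (adjusted p 0.376 and 0.715). The lowest Kit level was 10 CPM in HPC-1 5 weeks replicate 1.

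Other surface genes of this compartment separated the populations further. Of 14 genes listed as SLAM family and sort markers, 11 were tested, and 5 were higher in HPC-1 and 1, Slamf1, in HPC-2. Over all tested genes these shares were 2.39% and 1.35%, and the list counts below stand beside the same shares. Cd34, a sialomucin of progenitors, ran from 332 to 1740 CPM in HPC-1 (median 1230) and from 1.47 to 174 in HPC-2 (median 71.7), with no overlap (log2 3.72, SE 0.51, edgeR adjusted p = 0.000173). Cd27, a receptor of the TNF family, was at 64.7 to 277 CPM in HPC-1 and 6.18 to 61.2 in HPC-2 (log2 2.83, SE 0.36). The SLAM genes Cd244 and Ly9 were higher in HPC-1 as well. Cd244 was at 54.5 to 180 CPM in HPC-1 and had counts in 2 of 9 HPC-2 libraries, and Ly9 at 8.06 to 33 CPM and in 2 of 9 HPC-2 libraries. Cd244 and Ly9 overlap on opposite strands, and the strand setting of the counting is not given in the sources used here, so their reads could not be separated.

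Genes of early lymphoid cells were higher in HPC-1. Of 18 listed genes, 11 were tested, 8 were higher in HPC-1 and 0 in HPC-2, with a median log2 of 3.97 against -0.06 over all genes. Summed over the 18 genes, the level was 1820 to 5040 CPM in HPC-1 (median 3410) and 277 to 552 in HPC-2 (median 426). Dntt (GRCm38, as all positions here, chromosome 19, 41029275 to 41059525, plus strand), the terminal transferase that adds bases to antigen receptor joints, ran from 75.8 to 1780 CPM in HPC-1 (median 770). In HPC-2 it had counts in 2 of 9 libraries, at 0.177 and 10.5 CPM, and was at 0 in the other 7. The groups did not overlap (log2 10.44, SE 1.03, edgeR adjusted p = 3.97e-06). Flt3 (chromosome 5, 147330741 to 147400489, minus strand), the cytokine receptor that marks lymphoid-primed multipotent progenitors, ran from 75.9 to 437 CPM in HPC-1 (median 177) and from 0 to 11.2 in HPC-2 (median 0.187; log2 7.10, SE 0.89, edgeR adjusted p = 8.19e-05). Satb1, a chromatin organiser of lymphoid development, was at 70.8 to 239 CPM in HPC-1 and at most 2.77 in HPC-2 (log2 8.30, SE 0.79). The lowest Dntt level of HPC-1 was in 5 weeks replicate 2.

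The called lymphoid genes also included Ighm, Ltb, Blnk and Lck. Ighm, the immunoglobulin mu heavy chain, ran from 376 to 1040 CPM in HPC-1 and from 0 to 22.3 in HPC-2 (log2 6.77, SE 0.97). Ltb, the lymphotoxin beta chain, was at 28.5 to 102 CPM and 0 to 15.4 CPM, and lost its call without both near-identical libraries (edgeR adjusted p = 0.0537). Blnk, a B cell receptor adaptor, and Lck, a T cell receptor kinase, were each called with all libraries and lost the call without some single libraries, 13 for Lck and 3 for Blnk (HPC-1 5 weeks replicate 3, HPC-2 4 weeks replicate 1 and HPC-2 5 weeks replicate 2). Of the markers of mature lymphocytes, Ms4a1, which encodes CD20, and Cd4 had no counts in the 18 libraries, and Cd3e had counts in 1 HPC-1 library, at 1.91 CPM. Of 7 listed B cell genes, 2 had no count in HPC-1 and 4 had no count in HPC-2. Of 9 T and NK cell genes, these numbers were 1 and 6. Among untested members, 4 of 6 B cell and 5 of 7 T and NK cell genes had counts in more HPC-1 than HPC-2 libraries. In each list 1 untested gene went the other way. Summed over the lists, B cell genes were at 7.06 to 160 CPM in HPC-1 and 17.2 to 70.5 in HPC-2, and T and NK cell genes at 47.9 to 157 and 77.6 to 220 CPM. Most of these sums came from Cd79b, a B cell receptor chain (0 to 145 CPM in HPC-1, 15.6 to 70.5 in HPC-2), and Lat, a T cell receptor adaptor (41.5 to 151 and 76.9 to 217 CPM), and neither was called. Their part in the lymphoid values was not tested. Il7r, the interleukin 7 receptor chain, Rag1 and Rag2, the recombinase genes, were not tested because too few libraries had counts; they had counts in 7, 4 and 8 of 9 HPC-1 libraries and in no HPC-2 library. Of the 7 untested lymphoid genes, all 7 had counts in more HPC-1 than HPC-2 libraries. Ikzf1 and Mef2c, factors shared by lymphoid and other progenitors, were tested at log2 0.06 and -0.06 and were not called.

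**Figure D2:**
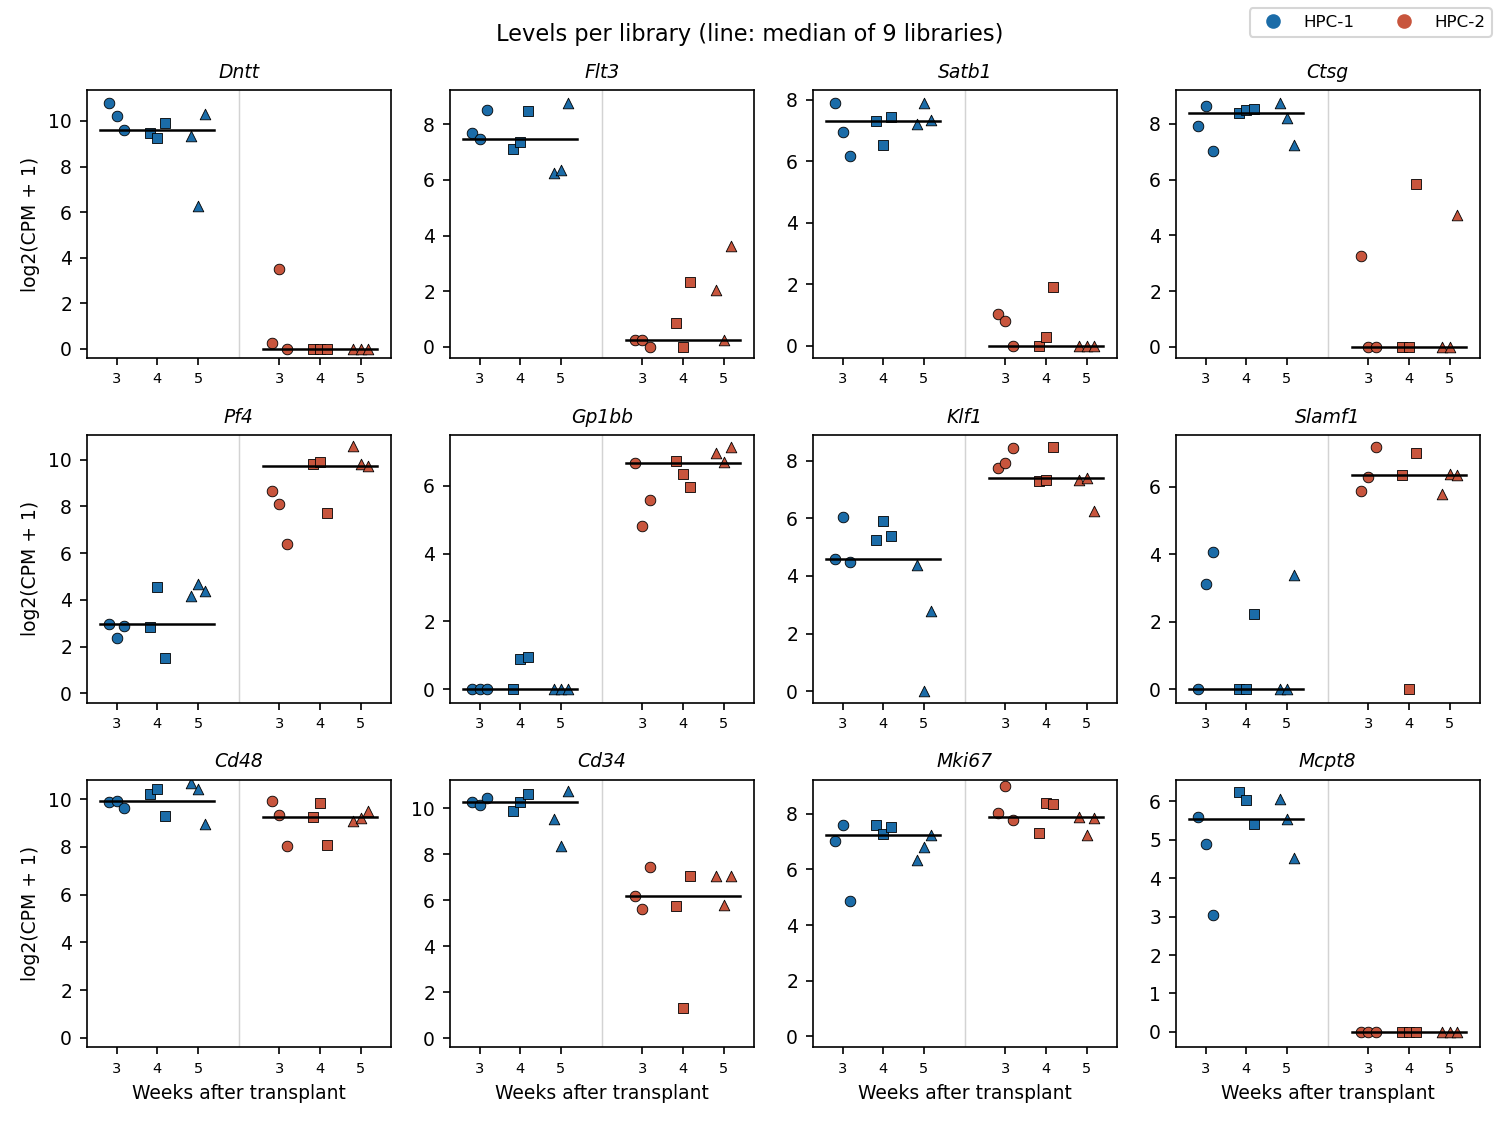
Levels of 12 genes in each library as log2(CPM + 1), at 3, 4 and 5 weeks for HPC-1 (left of the grey line) and HPC-2 (right); points are libraries and black lines the median of 9. Dntt, Flt3, Satb1 and Cd34 lie higher in every HPC-1 library, Pf4, Gp1bb and Klf1 in every HPC-2 library, and Cd48 and Mki67 overlap.

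The megakaryocyte genes went the other way. Of 27 listed genes, 21 were tested, 11 were higher in HPC-2 and 0 in HPC-1, with a median log2 of -2.78. Their summed level was 1990 to 4330 CPM in HPC-2 (median 3080) and 457 to 1290 in HPC-1 (median 939), so no HPC-1 library reached the lowest HPC-2 library. Pf4, the platelet chemokine PF4 (chromosome 5, 90772435 to 90773383, plus strand), ran from 83.1 to 1540 CPM in HPC-2 (median 853) and from 1.84 to 24.8 in HPC-1 (median 6.86), with no overlap (log2 -5.79, SE 0.51, edgeR adjusted p = 2.41e-06). The other platelet granule chemokine, Ppbp, was at 2.17 to 27.5 CPM in HPC-2 and had counts in 1 of 9 HPC-1 libraries. The receptor for von Willebrand factor is built from the products of Gp1ba, Gp1bb, Gp5 and Gp9, and all 4 were called. Gp1bb (chromosome 16, 18620317 to 18622403, minus strand) ran from 27.4 to 140 CPM in HPC-2 (median 102) and was at 0 in 7 of 9 HPC-1 libraries, with a highest level of 0.922 (log2 -9.03, SE 0.76, edgeR adjusted p = 1.79e-06). It overlaps Sept5 on the same strand, so reads of the longer transcript cannot be separated. Gp1ba ran from 6.5 to 71.7 CPM in HPC-2 against 0 to 9.23 in HPC-1, and Gp9 from 20.1 to 139 against 0 to 18.7 CPM. Gp5 differed with log2 -4.24 (SE 1.02), and lost its call without HPC-2 4 weeks replicate 3 (edgeR adjusted p = 0.0629).

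Membrane and regulatory genes of the lineage followed. Cavin2, a caveola protein of platelets, was at 11.5 to 51.2 CPM in HPC-2 and had counts in 1 of 9 HPC-1 libraries, at 1.78 CPM. Cd9, a tetraspanin of megakaryocyte progenitors, ran from 293 to 898 CPM in HPC-2 and from 87.4 to 237 in HPC-1 (log2 -1.71, SE 0.26). F2r, the thrombin receptor, was at 82.4 to 674 against 1.71 to 78.4 CPM. The GATA1 partner Zfpm1 was higher in HPC-2 as well, at log2 -3.06. The integrin gene Itga2b was not called (log2 -2.23, adjusted p = 0.248). Selp, which encodes P-selectin, had the opposite sign (log2 1.68, adjusted p = 0.174). Vwf was not tested and had counts in 5 of 9 HPC-1 libraries, at most 1.69 CPM, and in 7 of 9 HPC-2 libraries, at most 31.3.

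Red cell genes moved in the same direction. Of 24 listed genes, 18 were tested, 8 were higher in HPC-2 and 0 in HPC-1, with a median log2 of -2.07. Their summed level was 5330 to 10300 CPM in HPC-2 (median 7380) and 1030 to 3690 in HPC-1 (median 2060). A large part of these sums came from Car1 and Car2, given below. Klf1, the red cell transcription factor, ran from 74.9 to 353 CPM in HPC-2 (median 167) and from 0 to 64.7 in HPC-1 (median 23.2), with no overlap (log2 -3.01, SE 0.52, edgeR adjusted p = 0.00143). Gata1, the factor shared by red cells and megakaryocytes, ran from 100 to 508 CPM in HPC-2 and from 0 to 62.7 in HPC-1 (log2 -3.35, SE 0.65). Its highest levels, 508 and 444 CPM, were in HPC-2 3 weeks and 4 weeks replicate 3, which also had the lowest Cd48 (258 and 266 CPM). The carbonic anhydrase genes Car1 and Car2 were abundant in both populations: Car2 ran from 1870 to 3230 CPM in HPC-2 and from 740 to 1740 in HPC-1 (log2 -1.06, SE 0.18), and Car1 from 1190 to 5750 against 76.5 to 1570 CPM. Aqp1, a water channel, Blvrb, a heme-pathway reductase, and Tspo2 were called as well. Epor, the erythropoietin receptor, was at the threshold (log2 -4.11, SE 1.14, edgeR adjusted p = 0.0497) and lost its call without 16 of the 18 libraries taken singly.

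Genes of the granulocyte and monocyte lineages were higher in HPC-1. Of 22 listed genes, 16 were tested, 7 were higher in HPC-1 and 0 in HPC-2, with a median log2 of 2.81. Their summed levels overlapped, at 4330 to 8990 CPM in HPC-1 (median 7070) and 1430 to 7700 in HPC-2 (median 4370), the highest HPC-2 value in 3 weeks replicate 1. Mpo, the neutrophil granule peroxidase, ran from 441 to 2280 CPM in HPC-1 (median 933). In HPC-2 it had a median of 0.41 CPM, with 1 library, 4 weeks replicate 3, at 567 and the others at most 7.95 (log2 6.71, SE 1.53, edgeR adjusted p = 0.0142). The granule protease genes Prtn3 and Ctsg were called too: Prtn3 ran from 179 to 612 CPM in HPC-1 and from 14.8 to 133 in HPC-2, and Ctsg from 128 to 432 against 0 to 57 CPM. Elane, which encodes neutrophil elastase, was not called (log2 3.25, adjusted p = 0.285). Clec12a, a myeloid lectin receptor, was at 137 to 756 CPM in HPC-1 and 0 to 59.5 in HPC-2. The factors Spi1, also known as PU.1, and Irf8 were called at log2 2.07 and 4.39, and Csf3r, the G-CSF receptor, at 4.22. Csf3r lost its call without HPC-1 5 weeks replicate 3, HPC-2 3 weeks replicate 2, HPC-2 4 weeks replicate 1 or HPC-2 5 weeks replicate 2 (edgeR adjusted p up to 0.144). Mpo and Ctsg lost their calls with no filter on low counts (edgeR adjusted p = 0.0653 and 0.0586), Mpo also with no week term (0.101), and Spi1 without both near-identical libraries (0.0848). Without HPC-2 3 weeks replicate 1, the library with the high neutrophil sum, 8 of 16 tested genes were higher in HPC-1 (median log2 3.26). Of the mature neutrophil genes, all 5 tested had a positive log2 in the main fit (median 3.11) and 0 were called. The median sum was 184 CPM in HPC-1 and 23.2 in HPC-2. This sign was not stable: over the alternatives the list median ran from -1.61 (no week term) to 3.88. S100a8, Ngp, Lcn2 and Camp had log2 values of -3.72 to -5.51 at 3 weeks and positive values at 4 and 5 weeks. Mean levels of these genes were higher in HPC-2, as for Ngp (101 CPM in HPC-1, 384 in HPC-2). The part of mature neutrophil genes in the granulocyte values was not tested.

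Of 12 mast cell and basophil genes, 7 were tested, 2 were higher in HPC-1 and 1 in HPC-2, with a median log2 of 2.25. Mcpt8, a basophil protease, was at 7.18 to 74.5 CPM in HPC-1 (median 45.5) and had no count in any HPC-2 library (edgeR adjusted p = 3.32e-05). With 3 counts over the HPC-2 group as the floor, it was at least 767-fold higher. This bound pools the libraries of a group and covers counting error only, not the spread between libraries. Cpa3, the mast cell carboxypeptidase, ran from 257 to 937 CPM in HPC-1 and from 28.2 to 224 in HPC-2 (log2 2.25, SE 0.36). The mast cell proteases Cma1 and Tpsb2 were not tested, since each lacked counts in 1 HPC-1 library; both had counts in 8 of 9 HPC-1 libraries, at up to 511 and 450 CPM, and in none of HPC-2. Gata2, a factor of stem cells, mast cells and megakaryocytes, went the other way, at 69.8 to 466 CPM in HPC-2 and 20.9 to 82 in HPC-1 (log2 -1.93, SE 0.36). Of 5 tested dendritic cell genes, Tcf4 and Cd74 were higher in HPC-1, by log2 1.19 and 1.52, and Cd74 lost its call without any of 9 single libraries.

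**Figure D3:**
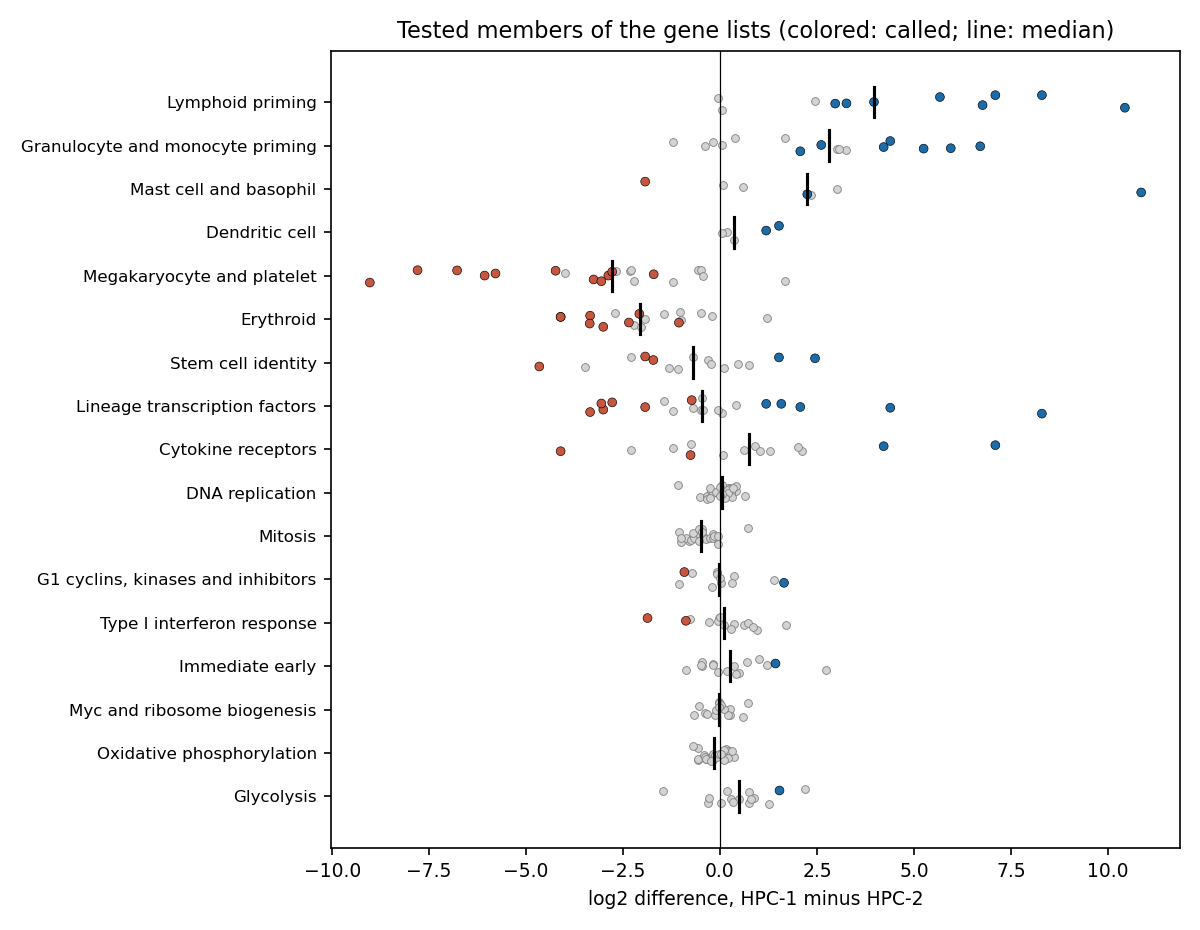
Log2 difference of each tested member of 17 gene lists; colored points are called genes, blue higher in HPC-1 and red higher in HPC-2, and the black line is the median of the list. Lymphoid (median 3.97) and granulocyte-monocyte genes (2.81) lie to the right, megakaryocyte (-2.78) and erythroid genes (-2.07) to the left, and the lists of replication, ribosome biogenesis and oxidative phosphorylation lie around 0.

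Transcription factors were divided between the populations. Of 20 tested lineage factors, 5 were higher in HPC-1 (Satb1, Tcf4, Irf8, Spi1 and Cebpb) and 6 in HPC-2, among them Klf1, Gata1, Gata2, Zfpm1 and Bcl11a. Cebpb and Bcl11a lost their calls without 12 and 10 single libraries. Stem cell genes were also divided: of 15 tested, Hoxa9 and Hlf were higher in HPC-1 and Gata2, Pdzk1ip1 and Slamf1 in HPC-2. Pdzk1ip1, a membrane protein gene of stem cells, lost its call without both near-identical libraries (adjusted p = 0.0543). Hoxa9, a homeobox factor of progenitors, ran from 56.1 to 138 CPM in HPC-1 and from 26.1 to 47.4 in HPC-2, with no overlap (log2 1.52, SE 0.23, edgeR adjusted p = 0.000499). Hlf, a stem cell leucine zipper factor, was close to the threshold (log2 2.45, adjusted p = 0.0465) and lost its call without 14 single libraries. Among 14 tested cytokine receptors, Flt3 and Csf3r were higher in HPC-1 and Epor and Ifngr1 in HPC-2, and Ifngr1 lost its call without 14 single libraries.

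Lists of housekeeping and cell cycle genes are read against the 3.74% called over all genes, a share at which lists of this size hold few calls or none. Of 27 DNA replication genes, 24 oxidative phosphorylation genes and 16 genes of Myc and ribosome biogenesis, 0 were called, with median log2 values of 0.06, -0.14 and -0.02. Of 24 mitosis genes 0 were called, although 23 had a negative log2 (median -0.49). Mki67, the proliferation antigen, ran from 28 to 195 CPM in HPC-1 (median 149) and from 149 to 515 in HPC-2 (median 237; log2 -1.0, SE 0.30, edgeR adjusted p = 0.0757). Ube2c and Birc5, which act in chromosome separation, had adjusted p of 0.0786 and 0.0813. Up to 4 of the 24 mitosis genes were called, all higher in HPC-2, under the alternatives. Cdk6, a kinase of G1 entry, was higher in HPC-2 (log2 -0.92, SE 0.20, edgeR adjusted p = 0.0118), at 193 to 695 against 112 to 263 CPM. Its counterpart Cdkn1a, which encodes the inhibitor p21, was higher in HPC-1 at log2 1.65 and lost its call without 14 single libraries. Against 1.35% of all genes, 2 of 15 tested interferon genes were higher in HPC-2, among them Zbp1, a nucleic acid sensor. Against 2.39% of all genes, 1 of 16 immediate early genes was higher in HPC-1, Zfp36, an RNA-decay factor. The same held for 1 of 15 glycolysis genes, the mutase gene Pgam1. Zbp1 lost its call without both near-identical libraries (edgeR adjusted p = 0.0631) and Zfp36 with no week term (0.43).

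Outside the lists, the largest differences fell on genes of several kinds. Trbc1, a T cell receptor constant region (chromosome 6, 41538218 to 41539881, plus strand), ran from 5.70 to 160 CPM in HPC-1 and had no count in HPC-2, so it was at least 846-fold higher (edgeR adjusted p = 0.000208). Its near copy Trbc2 can share reads with it, and so can the many heavy chain V genes with Ighv1-77, which was at 4.46 to 44.4 CPM in HPC-1 and at 0 in HPC-2 (at least 344-fold). Tmem108, which encodes a membrane protein, was at 3.56 to 47.4 CPM and 0 (at least 366-fold). As for Mcpt8, these fold bounds cover counting error only. Ldlrad4 had 1206 counts in HPC-1 and 3 in HPC-2, a ratio of levels with a counting interval of 158 to 2240, which covers counting error only. Cox6a2, a subunit of cytochrome oxidase best known from muscle, was at 16.6 to 123 CPM in HPC-1 and had counts in 2 of 9 HPC-2 libraries.

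Genes with the smallest p in HPC-1 included widely expressed ones. H2afy, which encodes the histone variant macroH2A1 (chromosome 13, 56073619 to 56136361, minus strand), ran from 891 to 2580 CPM in HPC-1 (median 1710) and from 235 to 697 in HPC-2 (median 352; log2 2.25, SE 0.21, edgeR adjusted p = 2.88e-06). Cep85, a centrosome gene, ran from 103 to 295 CPM against 17.6 to 57.1 CPM. Ccl9, a myeloid chemokine, ran from 137 to 443 CPM against 0 to 13.4 CPM (log2 5.81, SE 0.54).

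On the HPC-2 side, Fbxl13, an F-box gene, had 1 count in all HPC-1 libraries and 1050 in HPC-2, and was at 4.49 to 42.2 CPM there. Aldh1a1, a retinal dehydrogenase, was at 14.7 to 77.6 CPM in HPC-2 and had counts in 2 of 9 HPC-1 libraries. Nupr1, a stress-response factor, and Samd14 were at 7.95 to 119 and 3.99 to 72.3 CPM in HPC-2, and had counts in 4 and 3 HPC-1 libraries. The uncharacterised gene 1700016F12Rik was at 9.89 to 32.4 CPM in HPC-2 and at most 7.66 in HPC-1. Among abundant genes, Prkar2b, a regulatory subunit of protein kinase A, ran from 128 to 379 CPM in HPC-2 and from 35.6 to 91 in HPC-1 (log2 -1.80, SE 0.20), and Tnfaip2 from 40 to 258 against 2.35 to 32 CPM. As with Cd244 and Ly9, reads could not be told apart where a named gene overlaps another in the annotation: Fbxl13 with Lrrc17, Cox6a2 with Itgad, Cd27 with Vamp1, Prtn3 with Plppr3, F2rl2 with Iqgap2, Cebpb with Tmem189 and Ube2c with Tnnc2.

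**Figure D4:**
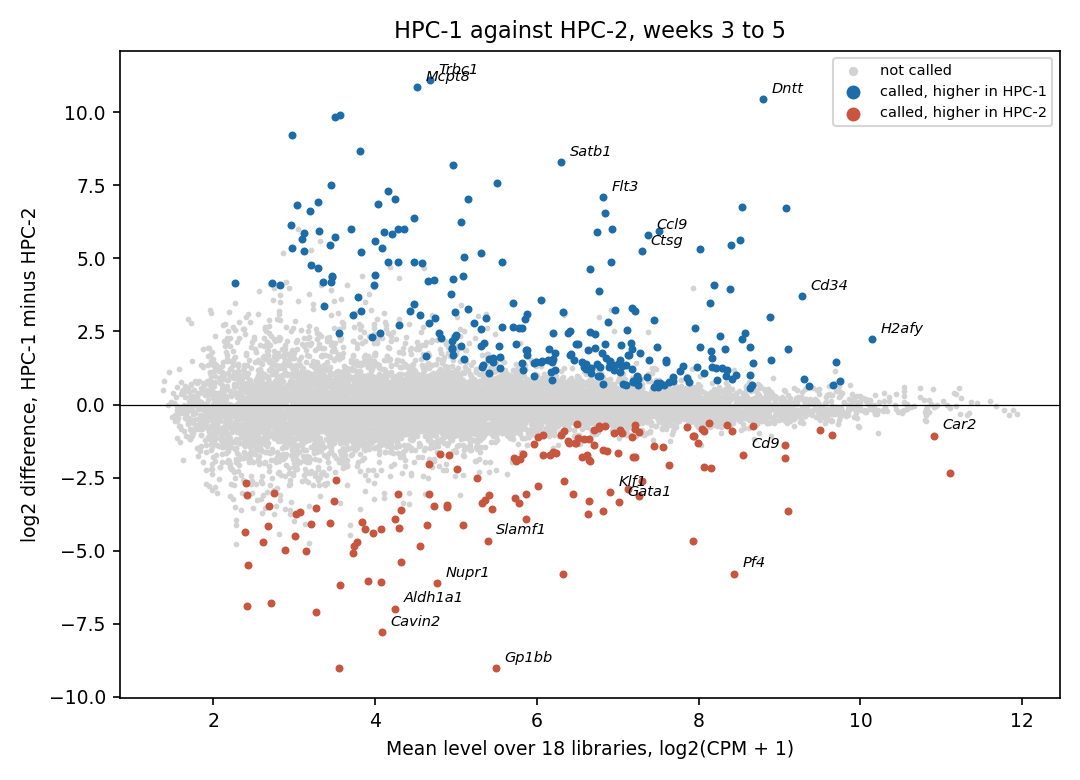
Log2 difference between HPC-1 and HPC-2 over weeks 3 to 5 against the mean level of each of 10522 genes, as log2(CPM + 1). The 252 blue and 142 red points are the genes called higher in HPC-1 and in HPC-2, with some named genes labelled.

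The contrast was also read at each week alone, where 3 libraries stand against 3 and the 6 groups share 1 estimate of the spread. At 3 weeks 39 genes were called (0.371%), 31 higher in HPC-1 (0.295%) and 8 in HPC-2 (0.076%). At 4 weeks 24 were called (0.228%), 21 higher in HPC-1 (0.2%) and 3 in HPC-2 (0.0285%). At this week same-numbered libraries deviated together (correlations of 0.171, 0.186 and 0.547). Replicates 1 and 2 did so across numbers almost as much (0.157 and 0.144), while replicate 3 with another number was at -0.31 to -0.291. Pairing by number is therefore not shown. With a replicate block 3 genes were called. At 5 weeks 46 were called (0.437%), 24 higher in HPC-1 (0.228%) and 22 in HPC-2 (0.209%). Of the 394 genes, 59 were called in at least 1 single week and 14 in all 3. At 3 weeks Pf4 was at 6.86, 4.21 and 6.46 CPM in HPC-1 and at 406, 270 and 83.1 in HPC-2. At 4 weeks the HPC-1 libraries had 6.24, 22.1 and 1.84 CPM and the HPC-2 libraries 904, 949 and 207. At 5 weeks they had 17.1, 24.8 and 20 against 1540, 903 and 853 CPM, so no HPC-1 library reached an HPC-2 library in any week. Pf4 had log2 values of -5.46 (SE 0.92), -6.20 (SE 0.94) and -5.68 (SE 0.92) at 3, 4 and 5 weeks. H2afy stayed near its overall value, at 2.26, 2.34 and 2.16. Among the largest differences of single weeks were Tmem173, which encodes STING, at 3 weeks, and F2rl2, a thrombin receptor gene, at 5 weeks; over the 3 weeks these had log2 6.57 and -5.80. Ttc39b was called at 5 weeks (log2 -11.01, SE 1.71) but not over the 3 weeks (edgeR adjusted p = 0.106). At 5 weeks it was at 0 in all 3 HPC-1 libraries and at 38.1 to 54.3 CPM in HPC-2. The size of such a value depends on the prior count of the fit and is no bound. Tmem173 at 3 weeks (0 in HPC-2) and F2rl2 at 5 weeks (0 in HPC-1) are under the same limit. The numbers of calls at single weeks rest on few libraries. Leaving out 1 library gave 3 to 54 calls at 3 weeks, 1 to 37 at 4 weeks and 2 to 596 at 5 weeks. The lowest counts came without HPC-2 3 weeks replicate 2, without any of HPC-1 4 weeks replicates 1 and 3 and HPC-2 4 weeks replicates 1 and 2, and without HPC-2 5 weeks replicate 1 or 2. The 596, of which 72 were higher in HPC-1 and 524 in HPC-2, came without HPC-1 5 weeks replicate 3, which leaves the 2 libraries that stand apart on the first component. Without both near-identical libraries 1 gene was called at 4 weeks and 4 at 5 weeks.

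Whether the difference between the populations itself changed over the 3 weeks was tested with a population by week term, and edgeR called 0 of 10522 genes, which does not show that the difference was the same at each week. At an unadjusted p under 0.05 there were 195 genes (1.85%), and DESeq2 called 6. Among named genes Ttc39b had the smallest unadjusted p by edgeR's test across all genes, 0.000416, with an adjusted p of 1. Without HPC-1 5 weeks replicate 3, 112 genes were called, and without HPC-2 4 weeks replicate 1, 1 gene.

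**Figure D5:**
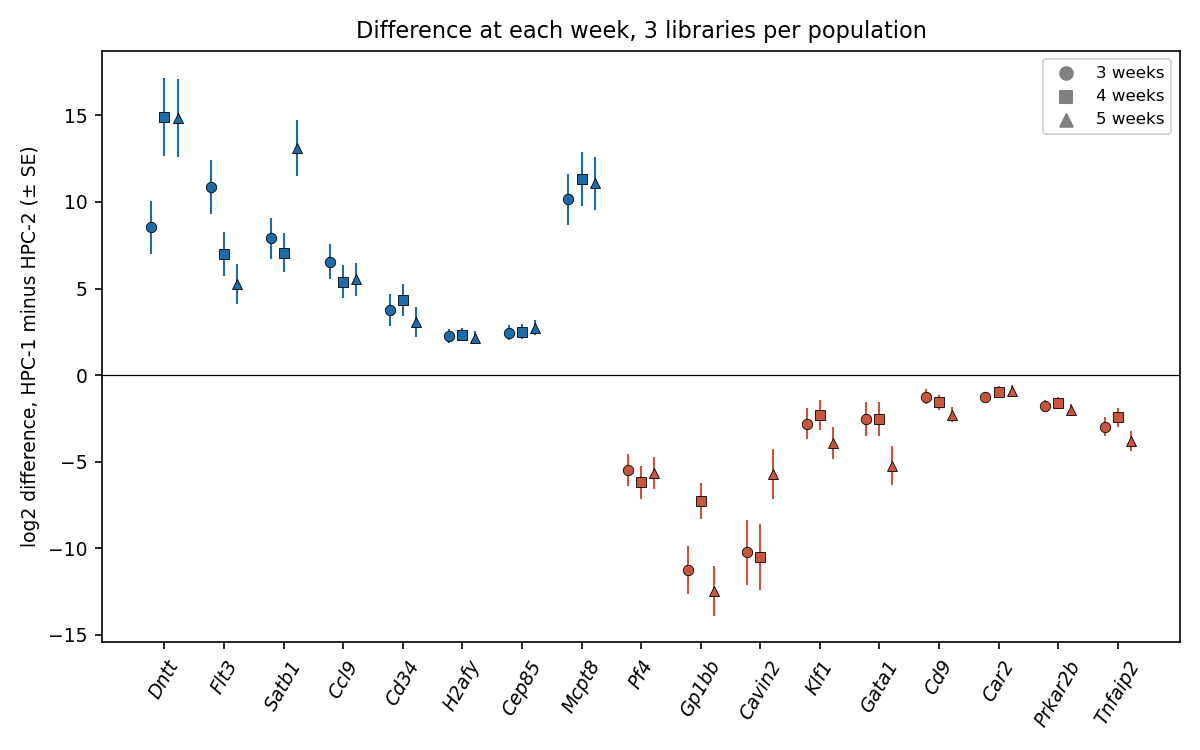
Log2 difference, HPC-1 minus HPC-2, of 17 genes in each of the 3 weeks, with bars of ± 1 SE and 3 libraries per population and week. The sign is the same at each week for all 17, which were called from these same libraries pooled over the weeks. Where a group is at 0 (as for Mcpt8) the height depends on the prior count of the fit and is no bound.

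The same contrast was set against that of 6 to 16 weeks, with 30 further HPC-1 and HPC-2 libraries. The population by period term called 1 of 12321 genes (0.00812%), with 538 (4.37%) at an unadjusted p under 0.05. This gene, Gm17477, a predicted gene named after its value was seen, had mean levels of 0.0238 CPM in HPC-1 and 3.00 in HPC-2 at 3 to 5 weeks, and of 2.64 and 0.375 CPM later (log2 difference of differences -10.15, SE 1.91, edgeR adjusted p = 0.039). It was not called without the libraries in near-identical pairs, which include an HPC-2 library of 8 weeks close to HPC-1 5 weeks replicate 1. DESeq2 called 43 genes for this term. So few calls by edgeR do not show that the contrast was the same in both periods. The log2 difference of weeks 3 to 5 minus that of the later weeks was 4.39 (SE 1.82), 2.75 (SE 1.43) and -1.0 (SE 0.79) for Dntt, Flt3 and Pf4, with adjusted p of 1 each.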

How the data were processed

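Bulk RNA-seq libraries of sorted HPC-1 and HPC-2 cells were used as deposited: raw counts per gene that the authors made, per the submitters' processing notes, with Trimmomatic 0.36, HISAT2 2.0.5 (GRCm38, mm10), Picard and featureCounts. No source used here gives the annotation release or strand setting. Among 53465 gene IDs, 99.6% were found in GENCODE M21, which gave positions.

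Genes were filtered with filterByExpr, which here asks for about 10 counts in as many libraries as a population has, scaled by TMM and tested with edgeR 4.0.16 (quasi-likelihood, week as a block) in R 4.3.3; adjusted p is Benjamini-Hochberg over all genes tested, and under 0.05 a gene is called. Levels are CPM, counts per 1000000 counts of the library. The test was checked on simulated data. Alternatives were DESeq2 1.42.0, limma 3.58.1 (voom), RLE scaling, no filter, a replicate block, no week term and libraries left out. Figures used matplotlib in Python.

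Named genes are the 8 largest and 5 smallest-p called genes in each direction whose mean reached 10 CPM, with 8 or more of the 9 libraries of each population on their own side of the midpoint of the mean log2(CPM + 1), the 3 largest in each direction at each week with no overlap, the markers Dntt, Flt3, Pf4, Slamf1, Cd48, Kit and Ly6a, and up to 4 smallest-p members of each list; other list members, and Gp9 among the promoters, were named after their values were seen. Some genes that the rule gives are not reported here. The members and lists were chosen with earlier results of these data known. Promoters are RefSeq's on GRCm38.p6, 1 per gene, the entry nearest the GENCODE start. Depth limits what a count of 0 shows: it allows up to 3 counts in the library. The fold bounds pool the counts of a group, allow 3 counts over it and leave out the spread between libraries.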

Additional observations from a re-analysis of the deposited data

Results flagged for a closer look

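In 24 of 156 groups of 9 libraries tested, for genes named in the text, the highest or lowest library stood apart from the others by Dixon's criterion. For normally spread values chance meets it in about 1 in 20 groups. A group with counts in 1 library only always meets it, as for Ldlrad4, Fbxl13, Cavin2 and Ppbp. The 24 can therefore not be set against that rate. HPC-1 5 weeks replicate 2 was the low library for Dntt (75.8 CPM, next 603), Cep85 (103, next 209) and Cd27 (64.7, next 180). HPC-1 5 weeks replicate 1 was low for Kit (10 CPM, next 57.7) and Lck (4.48, next 34.6). These are the 2 libraries with the fewest detected genes of the 18. HPC-1 3 weeks replicate 3 was low for Mki67 (28 CPM, next 79.5) and Elane (0, next 55.8) and high for Cd244 (180, next 97.3). Single HPC-1 libraries were high for genes otherwise near 0: Fbxl13 at 0.23 CPM and Ppbp at 1.38 in 4 weeks replicate 3, Cavin2 at 1.78 in 5 weeks replicate 3 and 1700016F12Rik at 7.66 in 3 weeks replicate 2.

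Among HPC-2 libraries, 4 weeks replicate 2 was low for Slamf1 (0 CPM, next 53.9), Cd34 (1.47, next 48.3) and Spi1 (0, next 22.2). HPC-2 4 weeks replicate 3 was high for Mpo (567 CPM, next 7.95) and Ifngr1 (563, next 301) and low for Hlf (0, next 3.69). HPC-2 3 weeks replicate 3 was high for Itga2b (185 CPM, next 53.8) and Ldlrad4 (0.406, the others at 0), and low for Car1 (1190, next 2680) and Ccl9 (0, next 3.89). Dntt reached 10.5 CPM in HPC-2 3 weeks replicate 2, and Ly9 2.30 CPM in HPC-2 3 weeks replicate 1.

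The population difference of Gm17477 differed between weeks 3 to 5 and the later weeks by log2 -10.15, by the interaction test. It had counts in 1 of 9 HPC-1 and 7 of 9 HPC-2 libraries at weeks 3 to 5, and in 11 of 15 and 6 of 15 later.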

How the results depend on the processing

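The 394 calls over weeks 3 to 5 became 594 with no filter on low counts, 763 with DESeq2 (392 shared) and 862 with voom (385 shared), and stayed within 1.5 times with RLE scaling (407), only genes of at least 10 CPM (395) and no week term (347). Leaving out 1 library gave 317 to 482 calls. Chosen after seeing the data, leaving out the 3 libraries in doubt (HPC-2 3 weeks replicate 1, HPC-2 4 weeks replicate 1 and HPC-1 5 weeks replicate 1) gave 329, and leaving out the 2 HPC-1 libraries apart on the first component 532. At 3, 4 and 5 weeks DESeq2 called 214, 185 and 353 genes. Without both near-identical libraries 1 gene was called at 4 weeks and 4 at 5 weeks. Leaving out 1 library gave 3 to 54, 1 to 37 and 2 to 596 calls at the 3 weeks and 0 to 112 for population by week, which also gave 6 with DESeq2, 1 with no filter and 1 without both near-identical libraries. For population by period, no filter gave 11, DESeq2 43, and leaving out the near-identical pairs or the libraries of few genes 0.

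The labels do not say that replicate numbers pair the libraries. Different-number pairs of a week correlated at -0.31 to 0.157. Of 9 same-number pairs, 5 correlated above 0.1 (-0.066 to 0.547): 3 of 3 at 4 weeks, 2 of 3 at 3 weeks and 0 of 3 at 5 weeks, and 6 of 9 HPC-1 and 5 of 9 HPC-2 libraries correlated best with their own number. With a replicate block there were 409 calls over weeks 3 to 5 (336 shared), 14, 3 and 9 at single weeks, and 0 for each interaction. Under the block Lck (edgeR adjusted p = 0.0562), Csf3r (0.114), Spi1 (0.0613) and Hlf (0.105) were not called, and Mki67 (0.0397), Ube2c (0.00167) and Birc5 (0.0122) were.

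Of 70 called genes named in the text, 50 were called under every alternative that gave them an adjusted p, 20 lost the call under some, and 0 changed direction. For 1700016F12Rik, Ly9 and Ppbp, among the 50, this was 27 of 28 alternatives. Where the count changed, the cause was not tested. The filter on low counts left 7 of 18 lymphoid and 5 of 12 mast cell genes untested, among them Cma1 and Tpsb2, which were abundant in 8 HPC-1 libraries and had no count in HPC-2.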
